A study of Mus musculus with 20 samples.

Results

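The regulators of G-protein signalling (RGS) form a gene family, of which 10 members were followed here in cultured mouse dorsal root ganglion (DRG) neurons: Rgs2, Rgs3, Rgs4, Rgs7, Rgs8, Rgs9, Rgs10, Rgs12, Rgs16 and Rgs17. They were chosen by gene name, with every probe that carries such a name, which gave 21 probes among the 39429 distinct probes and 10 of the 30222 gene names on the array. All samples came from DRG neurons of NIH Swiss mouse embryos of 13.5 days, grown for 3 to 4 weeks in compartmented chambers after treatment with an inhibitor of cell division, and kept overnight without serum or nerve growth factor before the experiment. Neurons were left unstimulated or received 6 V pulses of 0.2 ms, as bursts of 18 action potentials every 1 min (18/1) or of 90 every 5 min (90/5), for 2 hr or 5 hr. The 5 conditions had 4 samples each on 2 arrays, with a sample in each of the colours Cy3 and Cy5. The methods describe each condition as 5 pooled cultures and call its 4 samples biological replicas. How the pooled cultures were divided among the 4 samples is not given in the sources used here, so p-values measure the spread between these samples.

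RGS proteins bind the active, GTP-bound alpha subunit of a G protein and speed the hydrolysis of its GTP, which shortens the signal from the receptor. Small members of the family (Rgs2, Rgs3, Rgs4, Rgs8, Rgs16) act on alpha subunits of the Gi or Gq kind, and Rgs2 is known for its preference for Gq. Rgs7 and Rgs9 work in a complex with the beta subunit encoded by Gnb5, Rgs10 and Rgs12 act on Gi, and Rgs17 is known to act on Gz. In sensory neurons, G-protein coupled receptors for opioids, bradykinin and other mediators set excitability.

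The probe that detected Rgs2 and 1 probe each of Rgs3 and Rgs7 read a matching stretch of their transcripts, and they are shown because they tell how far these family members differ under the probes compared. The capitals mark the 21 bases that all 3 share at the 55 positions compared without gaps, in the alignment with most equal bases against Rgs2 and, of equal ones, the higher share.
Rgs2: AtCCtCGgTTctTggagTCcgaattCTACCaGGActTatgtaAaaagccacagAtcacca
Rgs3: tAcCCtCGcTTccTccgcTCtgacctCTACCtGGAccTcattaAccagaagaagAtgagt
Rgs7: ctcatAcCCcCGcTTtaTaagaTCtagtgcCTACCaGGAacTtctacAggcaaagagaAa
The Rgs2 probe A_55_P2109857 equals the Rgs3 probe A_55_P2027107 at 35 of 59 positions and the Rgs7 probe A_55_P2089198 at 22 of 55. In the mm9 build used by the array files, the Rgs2 probe lies at chr1:145848830-145848889, the Rgs3 probe at chr4:62363208-62363267 and the Rgs7 probe at chr1:177008321-177008380.

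The arrays lay on 3 slides, and values of single samples have to be read with the slide in mind. Unstimulated neurons (arrays 1 and 2) and 18/1 2 hr (arrays 3 and 4) were on slide 1. Arrays 5 and 6 carried 18/1 5 hr and arrays 7 and 8 carried 90/5 2 hr, all on slide 2, while slide 3 had arrays 9 and 10 with 90/5 5 hr. On slide 2 the median ratio of spot to background was 3.64 to 10.4, against 2.27 to 2.94 on slide 1 and 2.66 to 4.91 on slide 3. Each of its samples had 45 to 14642 non-uniform spots, against 6 to 36 and 37 to 85, and 840 to 2800 saturated spots, against 0 to 486 and 0. Array 7 was nearer to slide 3 in the first 2 measures, with ratios of 3.84 (Cy3) and 3.64 (Cy5) and 45 and 139 non-uniform spots. Slide and condition cannot be told apart except for 18/1 2 hr against unstimulated neurons and for 90/5 2 hr against 18/1 5 hr, which share a slide. All 12 sensory neuron markers were well above background in all 4 samples of every condition. The labels' growth protocol names spinal cords as the source. Of 8 spinal cord cell markers, 1 to 4 were well above background in all 4 samples of a condition, and their summed log2 signal was 9.84 to 10.9 in every sample outside 18/1 5 hr and 10.5 to 12.1 at 18/1 5 hr. Fibroblast markers summed to 14.1 to 15.4 in unstimulated neurons, 16.0 to 16.2 at 18/1 5 hr and 14.4 to 16.3 at 90/5 2 hr, and dividing cell markers to 11.13 to 11.59, 12.6 to 12.8 and 11.28 to 13.01. Schwann and satellite cell markers summed to 16.1 to 16.3 in unstimulated neurons and to 15.2 to 16.4 at 18/1 5 hr. The part of these cells in the results on slide 2 was not tested, and in such bulk samples fewer cells of a type and less RNA per cell cannot be told apart.

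Of the 10 RGS genes, 7 had a probe with spots at least 2 times as bright as background and free of the non-uniform mark in all 20 samples and entered the test: Rgs2, Rgs3, Rgs4, Rgs7, Rgs10, Rgs12 and Rgs17. Rgs8, Rgs9 and Rgs16 did not pass. Values are normalized log2 signals, and differences were tested with limma with Benjamini-Hochberg adjustment over 10355 genes. After 2 hr of 18/1 stimulation 1 of the 7 genes was called, where 0.0193% of all genes were called. At 90/5 2 hr it was 1 of 7 against 7.03% of all genes, at 90/5 5 hr 1 of 7 against 0.0676%, and at 18/1 5 hr 3 of 7 against 44.6%, a share of RGS genes close to that of all genes. The median difference of the 7 genes was 0.10 for 18/1 2 hr and 0.45 for 18/1 5 hr, beside 0.00 and −0.23 over all genes. For 90/5 it was 0.38 after 2 hr and 0.00 after 5 hr, beside −0.08 and −0.01.

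Rgs2 rose in all 4 stimulated conditions. Its probe A_55_P2109857 read 10.04, 10.29, 10.28 and 10.28 in unstimulated replicates 1 to 4. At 18/1 2 hr, replicates 1 to 4 read 13.59, 13.95, 13.37 and 13.07. Every stimulated sample lay above every unstimulated one. Of all genes, 6.14% did not overlap with unstimulated neurons, in either direction, after 2 hr of 18/1 and 53.8% after 5 hr of it, and for 90/5 the shares were 26.4% after 2 hr and 11.7% after 5 hr.

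At 18/1 5 hr the Rgs2 signal was 13.11 and 12.97 on array 5 and 14.75 and 14.57 on array 6. At 90/5 2 hr it was 13.75 and 13.68 on array 7 and 13.50 and 13.75 on array 8. At 90/5 5 hr, replicates 1 to 4 read 14.15, 14.19, 14.17 and 14.24. The samples of 18/1 5 hr thus fell in 2 levels by array, with the 90/5 5 hr samples between them, and the spot was saturated in 1 of the 20 samples, on array 6.

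Against unstimulated neurons the Rgs2 difference was 3.27 ± 0.34 (log2, SE, n = 4 per condition) at 18/1 2 hr, 9.64-fold, with a limma adjusted p of 1.46e-05. The SE comes from the model of all 20 samples and is the same in every Rgs2 comparison. The SD of the 4 samples was 0.12 in unstimulated neurons, 0.37 at 18/1 2 hr and 0.94 at 18/1 5 hr. For 90/5 it was 0.12 after 2 hr and 0.04 after 5 hr. With the 2 samples of each array averaged the 18/1 2 hr difference stayed 3.27 but its adjusted p was 0.136. In the methods' t-test it was 3.30 with a p of 0.00609 that became 0.555 after Benjamini-Hochberg adjustment. The Rgs2 difference was 3.63 ± 0.34 at 18/1 5 hr (12.4-fold, limma adjusted p 3.38e-07), with 1 of these 4 spots saturated. It was 4.43 without array 5, 2.82 without array 6 and 3.02 with median centring, and the methods' t-test gave 3.84 with a p of 0.0516 (0.0973 after adjustment). It was 3.45 ± 0.34 at 90/5 2 hr (10.9-fold, 1.61e-06) and 3.97 ± 0.34 at 90/5 5 hr (15.6-fold, 4.33e-07). Among the 10355 genes tested, the Rgs2 difference ranked 2 from the highest at 18/1 2 hr and at 90/5 5 hr, 14 at 90/5 2 hr and 22 at 18/1 5 hr, the last from the saturated value. The comparisons share their unstimulated samples, and 18/1 2 hr against unstimulated neurons is the one within a slide.

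**Figure D1:**
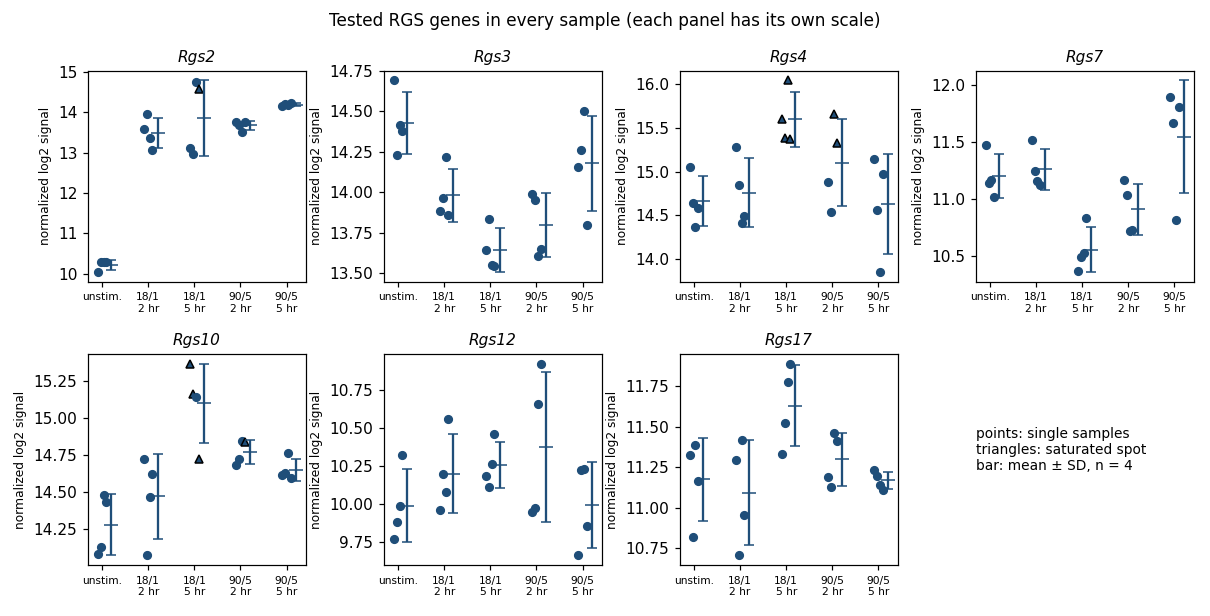
Normalized log2 signal (y axis, own scale per panel) of the 7 tested RGS genes in each sample by condition (x axis), with points for samples, triangles for saturated spots and bars for mean ± SD (n = 4). Rgs2 sits between 10.04 and 10.29 in unstimulated neurons and between 12.97 and 14.75 in all stimulated samples, and the saturated spots belong to Rgs2, Rgs4 and Rgs10 at 18/1 5 hr and to Rgs4 and Rgs10 at 90/5 2 hr.

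The second Rgs2 probe, A_52_P378968, lies at chr1:145847227-145847286 of mm9 and was much dimmer, so its values are set against its own levels only. It read 7.17, 7.04, 7.02 and 7.05 in unstimulated replicates 1 to 4 and 9.16, 8.88, 8.90 and 8.81 in 90/5 5 hr replicates 1 to 4. The lowest stimulated value of this probe was 7.32, at 18/1 5 hr, so no stimulated sample overlapped the unstimulated ones, beside the shares of tested genes without overlap given above (6.14% to 53.8%). All 4 unstimulated spots were under 2 times background, at ratios of 1.37 to 1.57, so the differences of this probe start from a level near background. In the fit of all 39429 probes with no spot filter its difference was 1.05 ± 0.38 at 18/1 5 hr with a limma adjusted p of 0.0492. The other differences were 0.89 for 18/1 2 hr (adjusted p 1.00), 1.11 for 90/5 2 hr (0.168) and 1.87 for 90/5 5 hr (0.160). In that fit 4 of the 21 RGS probes were called at 18/1 5 hr, where 25.5% of all probes were called, and 1 of 21 in each other condition, where 0.00507% (18/1 2 hr), 1.44% (90/5 2 hr) and 0.0457% (90/5 5 hr) of all probes were called.

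The 5 genes whose signal over the 20 samples was most like that of Rgs2, by Pearson's r among the genes tested, were Nr4a1 (0.95), Socs3 (0.89), Bhlhe40 (0.84), Gadd45b (0.80) and Amy1 (0.80). These are descriptions over samples that share arrays and conditions. Nr4a1, an immediate early gene for a nuclear receptor, was the other gene called at 18/1 2 hr, with a difference of 4.53 and a limma adjusted p of 4.50e-07. Socs3 encodes a suppressor of cytokine signalling, Gadd45b a growth arrest and DNA damage protein, and Bhlhe40 a transcriptional repressor of the clock.

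The RefSeq promoters of Rgs2 and of Nr4a1, the gene most like it, are printed because these are the 2 genes called after 2 hr of 18/1. Each shows the 250 bases before the start site in build GRCm38.p6, on the gene's strand, with every CGTCA (the core of a cyclic AMP response element) and GCGGGGGCG (the Egr site) of either strand in capitals. Rgs2 lies at chr1:144004150-144004399 on the minus strand and Nr4a1 at chr15:101266596-101266845 on the plus strand.
Rgs2: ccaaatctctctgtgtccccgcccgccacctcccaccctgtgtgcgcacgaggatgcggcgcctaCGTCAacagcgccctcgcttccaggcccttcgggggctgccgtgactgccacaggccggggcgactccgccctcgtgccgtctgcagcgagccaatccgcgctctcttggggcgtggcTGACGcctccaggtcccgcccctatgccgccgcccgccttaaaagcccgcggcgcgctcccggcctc
Nr4a1: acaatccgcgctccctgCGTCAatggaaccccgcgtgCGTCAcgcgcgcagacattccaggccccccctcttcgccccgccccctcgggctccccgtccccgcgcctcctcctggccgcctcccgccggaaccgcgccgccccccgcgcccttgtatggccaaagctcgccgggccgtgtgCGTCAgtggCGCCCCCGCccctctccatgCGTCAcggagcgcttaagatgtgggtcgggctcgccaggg
In the windows of 300 bases, which add 50 bases after the start site, CGTCA occurred 2 times in the Rgs2 promoter, 2 times in that of Rgs4 and 4 times in that of Nr4a1, and 20.8% of all 32851 promoters held it. The 10 RGS genes have 14 windows, of which 4 held CGTCA (1 each of Rgs2, Rgs4, Rgs8 and Rgs12) and 4 held TATAAA (of Rgs3, Rgs4 and Rgs9), which 13.6% of all promoters held. No RGS window held the full element TGACGTCA, the Egr site GCGGGGGCG or the SRF site (CArG box), which 1.79%, 2.91% and 1.63% of all promoters held. Both strands were searched, every TGACGTCA also holds CGTCA, and a match describes letters and no site of binding.

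**Figure D2:**
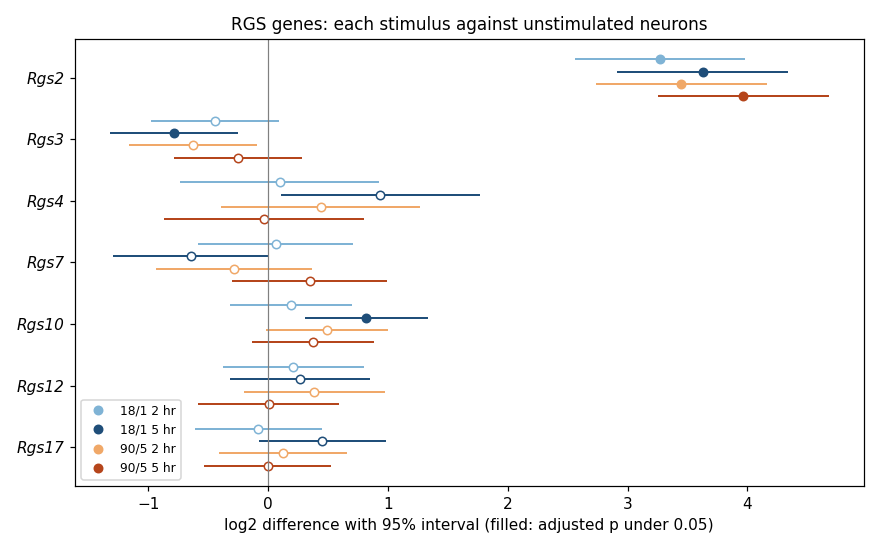
Log2 difference from unstimulated neurons (x axis) of the 7 tested RGS genes (y axis) in the 4 stimulated conditions, with 95% intervals of the limma fit and filled points for adjusted p under 0.05. Rgs2 lies between 3.27 and 3.97 in every condition, and the other filled points are Rgs3 and Rgs10 at 18/1 5 hr.

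Rgs3, a regulator of Gi and Gq signals, was lower at 18/1 5 hr. Its tested probe A_55_P2027102 (mm9 chr4:62363993-62364052) read 14.69, 14.23, 14.42 and 14.38 in unstimulated replicates 1 to 4. At 18/1 5 hr it read 13.64 and 13.83 on array 5 and 13.55 and 13.54 on array 6. The groups did not overlap, as for 53.8% of all genes in this comparison, and the difference was −0.79 ± 0.25 with a limma adjusted p of 0.0153.

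The Rgs3 differences were −0.45 at 18/1 2 hr (adjusted p 1.00), −0.63 at 90/5 2 hr (adjusted p 0.135) and −0.25 at 90/5 5 hr (adjusted p 1.00). At both 2 hr conditions all 4 stimulated samples lay below all unstimulated ones, where 6.14% (18/1) and 26.4% (90/5) of all genes did not overlap. Rgs3 passed at 18/1 2 hr with array quality weights (−0.46, adjusted p 0.0409). At 90/5 2 hr it passed without array 7 (−0.80, 0.0330), with no array block (0.0116) and in the methods' t-test (p 0.00716), and it was −0.07 with median centring. The fall at 18/1 5 hr fell short of the threshold without array 1 (adjusted p 0.103) and without array 2 (0.0874), which hold the unstimulated samples. It also fell short with no spot filter (0.0641) and with median centring (−0.77, limma adjusted p 0.0527). Under that centring the median of all genes was −0.81. A second probe, A_55_P2027107, gave −0.34 ± 0.37 at 18/1 5 hr in the fit of all probes (adjusted p 0.541), the groups overlapped, and 2 of its 4 spots at 18/1 5 hr were marked non-uniform. Another, A_55_P2027117, gave −0.70 ± 0.26 (adjusted p 0.0526), with all 4 samples below the unstimulated ones, a lack of overlap that 53.8% of the tested genes showed. It was well above background in 16 of 20 samples, 2 of the others being at 18/1 5 hr, and A_55_P2027112 was in none.

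Rgs4, a small regulator that is abundant in neurons, gave opposite readings with its 2 probes. A_55_P2026734 (mm9 chr1:171671609-171671668) read 15.06, 14.64, 14.37 and 14.59 in unstimulated replicates 1 to 4, and 15.60, 15.38, 16.05 and 15.38 at 18/1 5 hr, where all 4 spots were saturated. With every spot of a group saturated the difference is a lower limit within a given normalization, and here this probe was at least 1.91-fold higher with a limma adjusted p of 0.060. With median centring its difference was 0.13 (adjusted p 0.833). It passed the threshold with quantile normalization (1.25, adjusted p 0.0237), no colour term (0.0452), no array block (0.00779), array means (0.0486), only the 2 conditions fitted (0.0353), the methods' t-test after adjustment (0.0473) and without the Cy5 sample of array 6 (0.0414). A_55_P2026738 (mm9 chr1:171672488-171672547) read 14.70, 14.16, 14.03 and 13.89 in unstimulated replicates 1 to 4 and 13.57, 13.52, 12.29 and 12.64 at 18/1 5 hr.

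This second Rgs4 probe was lower by −1.19 ± 0.57 with an adjusted p of 0.134 in the fit of all probes. Its groups did not overlap, like those of 53.8% of the tested genes, and 1 of its 4 spots at 18/1 5 hr was marked non-uniform. The log2 ratio of the first probe to the second was 0.47 ± 0.16 (SD, n = 4) in unstimulated neurons, 0.55 ± 0.35 for 18/1 2 hr and 2.60 ± 0.86 for 18/1 5 hr. For 90/5 it was 1.18 ± 1.00 after 2 hr and 0.00 ± 0.22 after 5 hr. The first probe was saturated in all 4 samples at 18/1 5 hr and in 2 of 4 at 90/5 2 hr, so its part of the ratios 2.60 and 1.18 is a minimum. The ratio was 1.79 to 3.76 on arrays 5, 6 and 8, all on slide 2, and at most 0.904 on the other arrays. No direction for Rgs4 at 18/1 5 hr is given, since its probes differ.

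**Figure D3:**
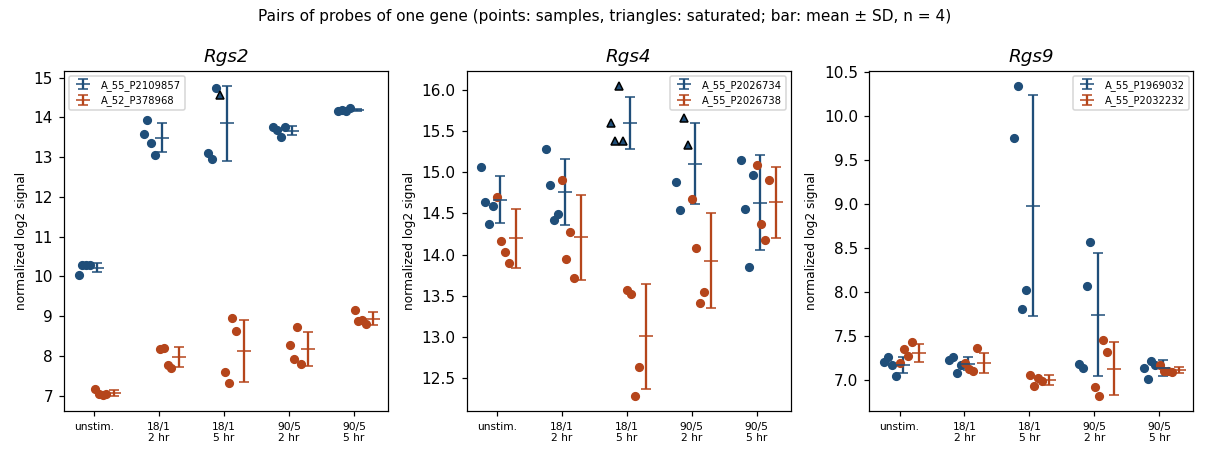
Normalized log2 signal (y axis) of 2 probes each of Rgs2, Rgs4 and Rgs9 in each sample by condition (x axis), with points for samples, triangles for saturated spots and bars for mean ± SD (n = 4), to be read within a probe. Both Rgs2 probes are higher in every stimulated condition, whereas at 18/1 5 hr the Rgs4 probes part and 1 of the Rgs9 probes reaches 10.34 while the other stays between 6.93 and 7.05.

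Rgs10, a small regulator of Gi, was higher at 18/1 5 hr. Its probe A_51_P218774 (mm9 chr7:135517256-135517315) read 14.08, 14.13, 14.48 and 14.43 in unstimulated replicates 1 to 4 and 15.37, 15.16, 15.15 and 14.72 at 18/1 5 hr. The groups did not overlap, as for 53.8% of all genes, and the difference was 0.82 ± 0.24 with a limma adjusted p of 0.00931. The spot was saturated in 3 of the 4 samples at 18/1 5 hr, so that their brightness is a minimum, and without array 1 the adjusted p was 0.149. Rgs10 was also 0.63 ± 0.24 higher at 18/1 5 hr than at 18/1 2 hr (adjusted p 0.0398), where 1 of 7 RGS genes and 44.2% of all genes were called. That call was lost without array 3, 4 or 5, without 18/1 2 hr replicate 2 or 3, and without the Cy3 sample of array 5 or of array 6, with the adjusted p reaching 0.172 without array 3. With each sample centred on its median alone it was 0.21 (adjusted p 0.643), and quantile normalization (0.0626), no spot filter (0.0999), only the 2 conditions fitted (0.0998) and array quality weights (0.0538) ended it too. From unstimulated neurons Rgs10 differed by 0.19 for 18/1 2 hr (adjusted p 1.00), by 0.49 for 90/5 2 hr (0.228, with 1 of 4 spots saturated) and by 0.37 for 90/5 5 hr (1.00). The 90/5 2 hr difference passed with no array block (limma adjusted p 0.0411), and that of 90/5 5 hr with array quality weights (0.43, 0.0114). With median centring, the 18/1 5 hr difference from unstimulated neurons was 0.46 (adjusted p 0.289).

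Rgs7, which pairs with Gnb5, differed between the 2 patterns after 5 hr. Its probe read 10.37, 10.50, 10.53 and 10.83 at 18/1 5 hr and 11.89, 11.67, 10.82 and 11.81 in 90/5 5 hr replicates 1 to 4. Replicate 3 of 90/5 5 hr lay within the range of 18/1 5 hr and the other 3 above it. The difference was 0.99 ± 0.31, 1.99-fold, with a limma adjusted p of 0.0127. This comparison called 1 of 7 RGS genes and 45.5% of all genes, and spans slides 2 and 3.

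At 2 hr the Rgs7 difference between the patterns was −0.35 ± 0.31 (adjusted p 0.565). The difference between the patterns changed from 2 hr to 5 hr by 1.34 ± 0.44 with a limma adjusted p of 0.0163, in a test that called 44.9% of all genes. That test sets 18/1 2 hr (slide 1) and 90/5 5 hr (slide 3) against the 2 conditions of slide 2. Slide and a change of the pattern difference with time cannot be told apart in it. The difference at 5 hr was 1.92 with each sample centred on its median alone, a scaling under which the median of all genes was 0.93. The call at 5 hr was lost with only the 2 conditions in the fit (adjusted p 0.0610), without 90/5 5 hr replicate 4 (adjusted p 0.0564) and without array 9 (0.135). Against unstimulated neurons, which read 11.48, 11.14, 11.17 and 11.02, Rgs7 was −0.64 ± 0.31 at 18/1 5 hr (adjusted p 0.0938), with all 4 samples below, a lack of overlap shared by 53.8% of all genes, and 0.35 ± 0.31 at 90/5 5 hr (adjusted p 1.00). The 18/1 5 hr value passed the threshold with median centring (−1.41, adjusted p 0.00730), array quality weights (−0.78, 0.00798), no array block (0.0130) and the methods' t-test after adjustment (0.0249), and the 90/5 5 hr value with array quality weights (0.58, 0.000908).

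**Figure D4:**
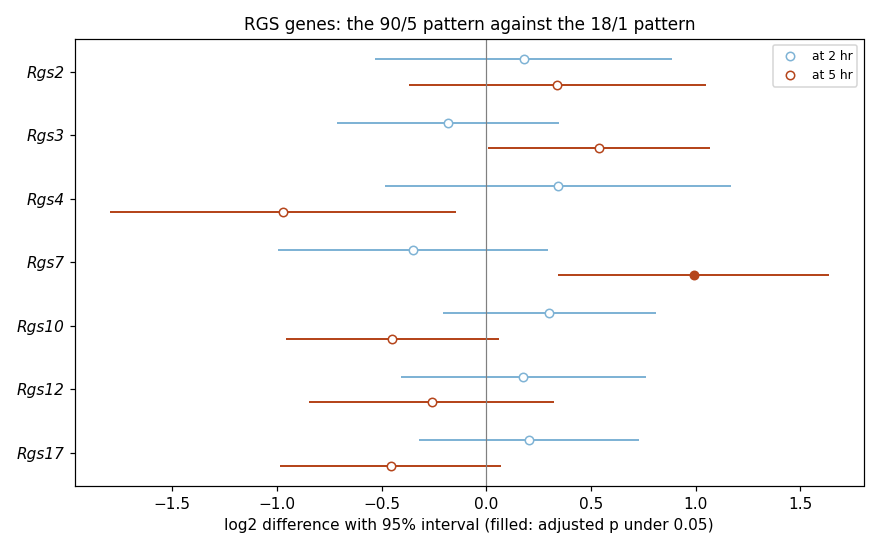
Log2 difference of the 90/5 pattern from the 18/1 pattern (x axis) of the 7 tested RGS genes (y axis) at 2 hr and at 5 hr, with 95% intervals of the limma fit and filled points for adjusted p under 0.05. Only Rgs7 at 5 hr is filled, at 0.99, and no gene is filled at 2 hr.

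Rgs2 was not called between the patterns. At 2 hr its 90/5 samples differed from the 18/1 samples by 0.18, with a 95% interval of −0.52 to 0.88, and at 5 hr by 0.34, with an interval of −0.36 to 1.04. In the latter, 1 of the 18/1 5 hr spots was saturated. No RGS gene was called between the patterns at 2 hr, where 5.02% of all genes were called by limma and none of the 7 RGS genes had an unadjusted p under 0.05. Without array 6 the Rgs2 difference at 5 hr was 1.15 (limma adjusted p 0.000703), and with median centring it was 0.80 (0.0474). Between 5 hr and 2 hr of 18/1 it was 0.36 (−0.35 to 1.06), and without array 5 it was 1.16 (limma adjusted p 0.00187). Between 90/5 5 hr and 90/5 2 hr the Rgs2 difference was 0.52 (−0.19 to 1.22), with all 4 later samples above the earlier ones, in a comparison in which 19.2% of all genes did not overlap. In the methods' t-test this Rgs2 difference was 0.51 and passed, with an unadjusted p of 0.000534. Limma called no RGS gene between 90/5 5 hr and 90/5 2 hr, with 9.01% of all genes called. It called none for 90/5 2 hr against 18/1 5 hr either, with 12.9%, and gave none of the 7 an unadjusted p under 0.05 in these 2 comparisons.

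Rgs12, a large regulator with several binding domains, and Rgs17, which acts on Gz, were not called in any of the 9 comparisons. The Rgs12 probe A_55_P2002122 ran from 9.66 to 10.92 over all samples, and its largest difference from unstimulated neurons was 0.38 ± 0.28 at 90/5 2 hr. Without array 7 this difference was 0.80 with a limma adjusted p of 0.0356, and that of 90/5 5 hr from 90/5 2 hr was −0.80 (adjusted p 0.0362). With median centring Rgs12 was 0.90 higher at 90/5 2 hr than at 18/1 5 hr (adjusted p 0.0228). The Rgs17 probe A_55_P2176145 ran from 10.71 to 11.89, with 0.45 ± 0.25 at 18/1 5 hr (adjusted p 0.150). Without array 5 Rgs17 was called at 18/1 5 hr against unstimulated neurons (0.65, adjusted p 0.0441) and against 18/1 2 hr (0.74, 0.0266), and 90/5 5 hr was lower than 18/1 5 hr (−0.66, 0.0403). Of the other Rgs12 probes, A_55_P2002129 read 8.43 and 8.28 on array 10 and between 6.90 and 7.31 on the other arrays.

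Rgs8, Rgs9 and Rgs16 come from the fit of all probes alone. Rgs16 was well above background in all 20 samples but marked as non-uniform in 2, both among the 4 samples at 18/1 5 hr. This gene, a regulator known to be induced in many cells, read 8.64, 9.29, 8.48 and 9.08 in 18/1 2 hr replicates 1 to 4 and 7.11, 7.28, 7.91 and 7.94 at 18/1 5 hr. The groups did not overlap, as for 49.3% of the 10355 tested genes, and Rgs16 fell by 1.31 with a limma adjusted p of 0.0161 between the times, where 2 of the 21 RGS probes and 25% of all probes were called. Against unstimulated neurons, at 7.68, 8.34, 7.90 and 8.93, it was 0.66 ± 0.37 at 18/1 2 hr and −0.65 ± 0.37 at 18/1 5 hr, with adjusted p values of 1.00 and 0.206.

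Rgs9, the regulator of phototransduction and of striatal signalling, gave unlike readings with its 4 probes. A_55_P1969032 read 7.05 to 7.27 in unstimulated neurons, 9.75 and 10.34 on array 5 and 7.81 and 8.02 on array 6, and 8.07 and 8.57 on array 8. Its difference at 18/1 5 hr was 1.81 ± 0.49 (limma adjusted p 0.0127), but all 4 spots at 18/1 5 hr were marked non-uniform and all 4 unstimulated spots were under 2 times background. A_55_P2032232 shares 54 of its 60 bases and read 6.93 to 7.05 at 18/1 5 hr, so the higher reading was not seen by an overlapping probe. A_66_P140185 read 9.05 and 8.87 on array 10 and 6.69 to 7.71 on all others. In the comparison of 90/5 5 hr with 18/1 5 hr, 4 of the 21 RGS probes were called, against 26.7% of all probes. They went both ways: for Rgs9, A_55_P1969032 was lower at 90/5 5 hr (−1.84) while A_66_P140185 (1.14) and A_55_P1969027 (0.58) were higher. For Rgs4, A_55_P2026738 was higher (1.63), while A_55_P2026734 was −0.97 ± 0.40 in the fit of tested genes (adjusted p 0.0505). All 4 spots of the latter at 18/1 5 hr were saturated, so the size of this fall is a minimum within a given normalization. The fall passed with quantile normalization (limma adjusted p 0.0179), no colour term (0.0374), no array block (0.00595), array means (0.0418) and the methods' t-test (p 0.0213). It also passed in some leave-out fits, and with median centring the difference was 0.02. A_55_P1969027 was not well above background in any 18/1 5 hr sample. None of the RGS probes was called between the patterns at 2 hr (1.13% of all probes), between 90/5 5 hr and 90/5 2 hr (2.68%) or between 90/5 2 hr and 18/1 5 hr (6.27%). Rgs8, a neuronal regulator, read 7.19 to 8.49 in unstimulated neurons and 6.89 to 8.21 in stimulated ones with A_55_P2004861, and was not called. Its other probe, A_52_P635598, was well above background in 3 of 20 samples, none of them at 18/1 5 hr. From 18/1 5 hr to 90/5 5 hr it differed by 0.42 (limma adjusted p 0.0507), beside −0.10 with A_55_P2004861.

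The G-protein genes on which RGS proteins act, and their other partners, were taken as 5 lists with 74 genes, of which 40 were tested. At 18/1 5 hr 7 of them were higher and 9 lower, where 44.6% of all genes were called. At 90/5 2 hr 1 was lower, where 7.03% of all genes were called, and limma called none at 18/1 2 hr (0.0193% of all genes) or 90/5 5 hr (0.0676%), where 0 and 1 of the 40 had an unadjusted p under 0.05. The gene lower at 90/5 2 hr was Gnb5, the beta subunit that pairs with Rgs7 and Rgs9, at −1.35 ± 0.22 (limma adjusted p 0.000684), and it was −1.10 ± 0.22 at 18/1 5 hr (adjusted p 0.000570). Both values were measured on slide 2.

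Among 11 tested alpha subunits, 1 rose and 4 fell at 18/1 5 hr, a share of 45.5% with a median of −0.24. Gnaz, the alpha subunit of Gz and a target of Rgs17, fell by 2.08 ± 0.33 (limma adjusted p 7.21e-05), and Gna13 fell by 1.41 ± 0.38 (adjusted p 0.00465). Of 10 tested beta and gamma subunits 1 rose and 2 fell, the largest after Gnb5 being Gng7, at 1.04 ± 0.28. Of 4 tested other RGS genes and anchors, Rgs19 rose by 2.20 ± 0.35 and Rgs6, a further partner of Gnb5, fell by 0.96 ± 0.25. Of 10 tested modulators, 3 rose and 2 fell, led by Adrbk1, a receptor kinase, at 1.20 ± 0.35, and Grk6, another, at −1.14 ± 0.29. The counts of these 4 lists stand beside the 44.6% of all genes called at 18/1 5 hr.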

How the data were processed

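RNA of 20 samples in 5 conditions was measured on 10 two-colour arrays with Agilent Feature Extraction. The scanner files the authors deposited, which were used here, hold spot and local background intensity per colour before normalization, with other marks (saturated, non-uniform, well above background) per spot. Of 82 single-colour columns per array, 72 were not used. Software versions 10.7.1.1 (slide 1) and 10.7.3.1 are per the file headers. The annotation of the latest arrays was used for all and gives 8333 spots another gene name than the earlier one. In 18/1 5 hr and 90/5 2 hr the labels do not tie colours to replicates, so samples are named by array and colour.

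In R 4.3.3 with limma 3.58.1 and statmod 1.5.0 (files read by the data.table package, 1.17.8), background was subtracted by normexp (offset 50), colours were normalized by loess without control spots and arrays by Aquantile. Spots were averaged per probe, and each gene took its brightest probe. The model of all samples held condition, colour and a random block per array (correlation 0.529), with an adjusted p threshold of 0.05. The fit was tested on simulated data for 18/1 5 hr against unstimulated neurons. It recovered 39 of 100 changes of log2 size 1 and 94 of 100 of size 2, with 11 false calls. Figures used Python 3.11.15 with matplotlib 3.10.9. Members, gene lists and tests were chosen with earlier results of these data known. Named genes were every member, every gene of the other G-protein lists called at 2 hr or at 90/5 5 hr, the 2 largest called per list at 18/1 5 hr, and the 5 genes most like a member called in at least 2 of the comparisons with unstimulated neurons. The genes of 1 of these lists are not reported here. Array number limits the precision. Alternatives are in the closing section.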

Additional observations from a re-analysis of the deposited data

Results flagged for a closer look

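In unstimulated neurons, the Rgs2 signal of replicate 1 (10.04) lay apart from the other 3 samples (10.28 to 10.29), with a gap of 0.967 of the group's whole range. With 35 groups of 4 samples examined for such a sample, chance marks about 1 group in 20. The Rgs7 difference between the patterns was larger at 5 hr than at 2 hr by 1.34 on the log2 scale, as tested with an interaction term in limma. That term sets 18/1 2 hr (slide 1) and 90/5 5 hr (slide 3) against the 2 conditions of slide 2, so slide cannot be told apart from it.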

How the results depend on the processing

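The members called in each comparison were counted again under each alternative. Against unstimulated neurons, the count at 18/1 2 hr of 1 became 0 with saturated probes left out, with array means and with the methods' t-test after Benjamini-Hochberg, and 2 with array quality weights (Rgs3 added). At 18/1 5 hr 3 became 1 without saturated probes, 6 with no array block and 1 to 4 when a sample or array was left out. It was 4 with quantile normalization, no colour term, array means or only the 2 conditions fitted (Rgs4 added), quality weights (Rgs7 added) or the methods' t-test (Rgs4 and Rgs7 added, Rgs2 lost), 3 with Rgs9 in place of Rgs3 without the spot filter, and 2 with median centring (Rgs2 and Rgs7). At 90/5 2 hr 1 became 0 without saturated probes, 3 with no array block, 2 with the methods' t-test and 1 to 3 by leaving out. At 90/5 5 hr 1 became 0 without saturated probes and 3 with array quality weights. Leaving out saturated probes removes Rgs2, Rgs4 and Rgs10, which leaves 4 members.

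Between the patterns at 5 hr, 1 became 2 with quantile normalization, median centring, the filter within a condition, every probe, no colour term, array means or quality weights, 5 with no array block, 3 with the methods' t-test, 0 after its Benjamini-Hochberg adjustment or with only the 2 conditions fitted, and 0 to 3 by leaving out. For 18/1 5 hr against 18/1 2 hr, 1 (Rgs10) became 2 with no spot filter or every probe (Rgs9 and Rgs16, without Rgs10) or no colour term, 4 with no array block or the methods' t-test, 0 without saturated probes or with array means, and 0 to 2 by leaving out. Its count stayed 1 with another gene in place of Rgs10 under quantile normalization or only the 2 conditions fitted (Rgs4), median centring, quality weights or the adjusted t-test (Rgs7) and the filter within a condition (Rgs16). For 90/5 5 hr against 90/5 2 hr, 0 became 1 with no array block or quality weights (Rgs7) or the methods' t-test (Rgs2), and 0 to 1 by leaving out. For 90/5 2 hr against 18/1 5 hr, 0 became 2 with median centring, 1 with the filter within a condition, and 0 to 1 by leaving out. Without array 5, Rgs2 was called for 90/5 2 hr against 18/1 5 hr (−0.99, adjusted p 0.0349), and without array 6, Rgs10 for 90/5 5 hr against 18/1 5 hr (−0.61, 0.0357) and Rgs7 for 18/1 5 hr against 18/1 2 hr (−0.83, 0.0357). The cause of these shifts was not tested. No called value of a member changed sign. Median centring moved the median of all genes by −0.57 at 18/1 5 hr against unstimulated neurons and by 0.70 for 90/5 5 hr against 18/1 5 hr. It ended the Rgs3 call at 18/1 5 hr (adjusted p 0.0527), as did no spot filter (0.0641), which also ended the Rgs7 call (0.0755).

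The Rgs2 rise kept its call in every leave-out fit. It was lost at 18/1 2 hr with array means (adjusted p 0.136) and with the adjusted t-test (0.555), and at 18/1 5 hr with the methods' t-test (p 0.0516; 0.0973 after adjustment). With the replicate number as a block, possible for 18/1 2 hr and 90/5 5 hr against unstimulated neurons, the count stayed 1 in both and the block changed no call. Same-numbered samples correlated at −0.05 to 0.72 in their deviations from the condition means, and samples with other numbers at −0.50 to 0.49. Of 12 samples, 10 correlated best with their own number. Same-numbered samples always share a colour, and colour was not fitted in these deviations. The slide block left the within-slide fits as they were, since each condition lies on 1 slide. The brightness of saturated spots limits Rgs4 and Rgs10, and signal near background limits Rgs8 and Rgs9.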
